A study of Mus musculus with 12 samples.

Results

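The genes described are the transcription factors that set melanocyte identity or are known for epithelial-mesenchymal transition (EMT). They were taken by symbol from a table of read counts, and 9 of the 10 named factors had a row among its 34513 genes: Mitf, Sox10, Sox9, Pax3, Tfap2a, Foxd3, Zeb1, Zeb2 and Snai2. Twist1 was not analysed here. The counts came from RNA of cultured mouse cells of 3 lines, each with 2 libraries without treatment and 2 with SX-682, an antagonist of the chemokine receptors CXCR1 and CXCR2. MelanA is an immortalized, non-tumorigenic melanocyte line, B16F0 a tumorigenic melanoma line and B16F10 a metastatic melanoma line. The controls are labelled as having had no treatment, and the vehicle, dose and time of SX-682 for the sequenced cultures are not given in the sources used here, which name DMSO as the control in a growth assay of the same lines. Each kind of cell is represented by 1 line, so what is particular to a line cannot be told apart from its tumorigenic state. The labels do not say whether replicates were separate cultures, so p-values measure the spread between these libraries, which may be technical.

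Melanocytes arise from the neural crest. SOX10 and PAX3 act on the promoter of Mitf that is used in melanocytes, and MITF in turn binds the genes of pigment enzymes and of the melanosome. TFAP2A works with MITF at many of these genes, FOXD3 holds Mitf down in early crest cells, and SOX9 is a relative of SOX10. ZEB1, ZEB2 and SNAI2 bind E-boxes in epithelial genes, and ZEB2 and SNAI2 are also part of the normal melanocyte program.

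Of the 9 genes, 4 (Mitf, Foxd3, Tfap2a and Zeb2) had start sites among the RefSeq promoter entries used here. The 250 bases before each start were searched on both strands for 5 short motifs: TGACGTCA (the cAMP response element, bound by factors such as CREB1 and ATF4), CACGTG (an E-box), CATGTG (the core of the M-box), CACCTG (the E-box of ZEB and SNAI factors) and ACAAAG (a core of SOX and LEF sites). None of the 5 contains another, but matches of different motifs can share bases. TGACGTCA lay in 1.55% of 32851 windows of this length across the annotation, CACGTG in 6.02%, CATGTG in 12.3%, CACCTG in 17.2% and ACAAAG in 16.5%. The windows shown are those before the most downstream of the 3 Mitf starts and before Foxd3, the only windows searched that held TGACGTCA. Those of the other Mitf starts lacked it. Mitf fell in all 3 lines with SX-682, and Foxd3 had no counts in any B16 library. Both windows shown are GRCm38.p6, plus strand, with the cAMP response element, and in Foxd3 also the E-box CACGTG, in capitals. They are chr6:97991533-97991782 and chr4:99656049-99656298.
Mitf: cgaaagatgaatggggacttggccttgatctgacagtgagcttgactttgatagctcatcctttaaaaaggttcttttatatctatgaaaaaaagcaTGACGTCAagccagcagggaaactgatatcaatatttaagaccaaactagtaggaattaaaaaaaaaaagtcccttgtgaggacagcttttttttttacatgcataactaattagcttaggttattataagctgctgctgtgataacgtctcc
Foxd3: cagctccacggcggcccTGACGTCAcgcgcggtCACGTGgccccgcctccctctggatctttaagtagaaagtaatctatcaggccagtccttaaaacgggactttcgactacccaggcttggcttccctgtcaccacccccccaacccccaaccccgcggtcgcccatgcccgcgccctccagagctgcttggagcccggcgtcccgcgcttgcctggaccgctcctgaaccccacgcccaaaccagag
The element began 153 bases before the start of Mitf and 233 before that of Foxd3, whose E-box began 217 bases before it. Of the other windows, that of the middle Mitf start held CACCTG and 1 of the 4 of Zeb2 held ACAAAG. A match of letters is a description and shows no binding. Only these exact letters were searched, so other forms of a site would be missed.

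On GRCm38 the genes lie at chr6:97807052-98021349 (Mitf, plus strand), chr15:79154908-79165240 (Sox10, minus), chr11:112782224-112787760 (Sox9, plus), chr1:78101267-78197134 (Pax3, minus), chr13:40715302-40738376 (Tfap2a, minus), chr4:99656299-99658622 (Foxd3, plus), chr2:44983632-45117395 (Zeb2, minus) and chr16:14705852-14709385 (Snai2, plus). All are protein-coding, and counts were made over the joined exons of each gene, so the 8 annotated transcripts of Mitf cannot be told apart. Exons on the opposite strand cover 14.6% of the exonic bases of Tfap2a, from 3 antisense genes joined, and 3.27% of those of Zeb2.

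The libraries held 48876982 to 85322092 counted reads each. Cell type markers were set beside the line labels. They describe the lines and do not test whether a label is right. The 5 melanocyte markers Tyr, Tyrp1, Dct, Pmel and Mlana were over 3 counts in every library, but their summed level was 586 to 588 CPM (read counts per library size after TMM scaling) in untreated MelanA against 17757 to 17848 in B16F0 and 23432 to 23468 in B16F10. Tyr, the enzyme that starts melanin synthesis, was at 0.892 and 0.760 CPM in untreated MelanA, 517 and 514 in B16F0 and 70.4 and 65.8 in B16F10. Of 5 fibroblast markers, all were over the floor of 3 counts in untreated MelanA, summing to 113 to 115 CPM. They summed to 13.7 to 14.3 in B16F0 (3 over the floor) and 3.93 to 3.94 in B16F10 (2 over the floor). Keratinocyte, leukocyte and endothelial markers summed to 5.58 to 6.03, 7.13 to 7.19 and 1.45 to 1.72 CPM in untreated MelanA. In the untreated B16 lines each of these sums was 0.496 CPM or less.

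The first comparison asked how the untreated lines differed. Mitf, Tfap2a, Zeb2 and Sox9 were higher in both B16 lines than in MelanA, while Sox10, Zeb1, Snai2 and Foxd3 were lower. The largest differences were the absence of Foxd3 counts from the B16 lines and the 26.0-fold and 37.4-fold lower Zeb1. All 9 genes passed edgeR's quasi-likelihood test (Benjamini-Hochberg adjusted p under 0.05) in B16F0 against MelanA, 4 higher and 5 lower, where 75.9% of all 18338 genes tested also passed (35.3% higher, 40.6% lower). In B16F10 against MelanA 9 passed, 5 higher and 4 lower, against 74.2% of all genes (33.4% higher, 40.8% lower). Since Foxd3 entered the test only through MelanA, its calls there were bound to occur. Zeb1 had low counts in the untreated B16 libraries, 5 to 18 in B16F0 and 4 to 10 in B16F10. The comparisons share their libraries.

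**Figure D1:**
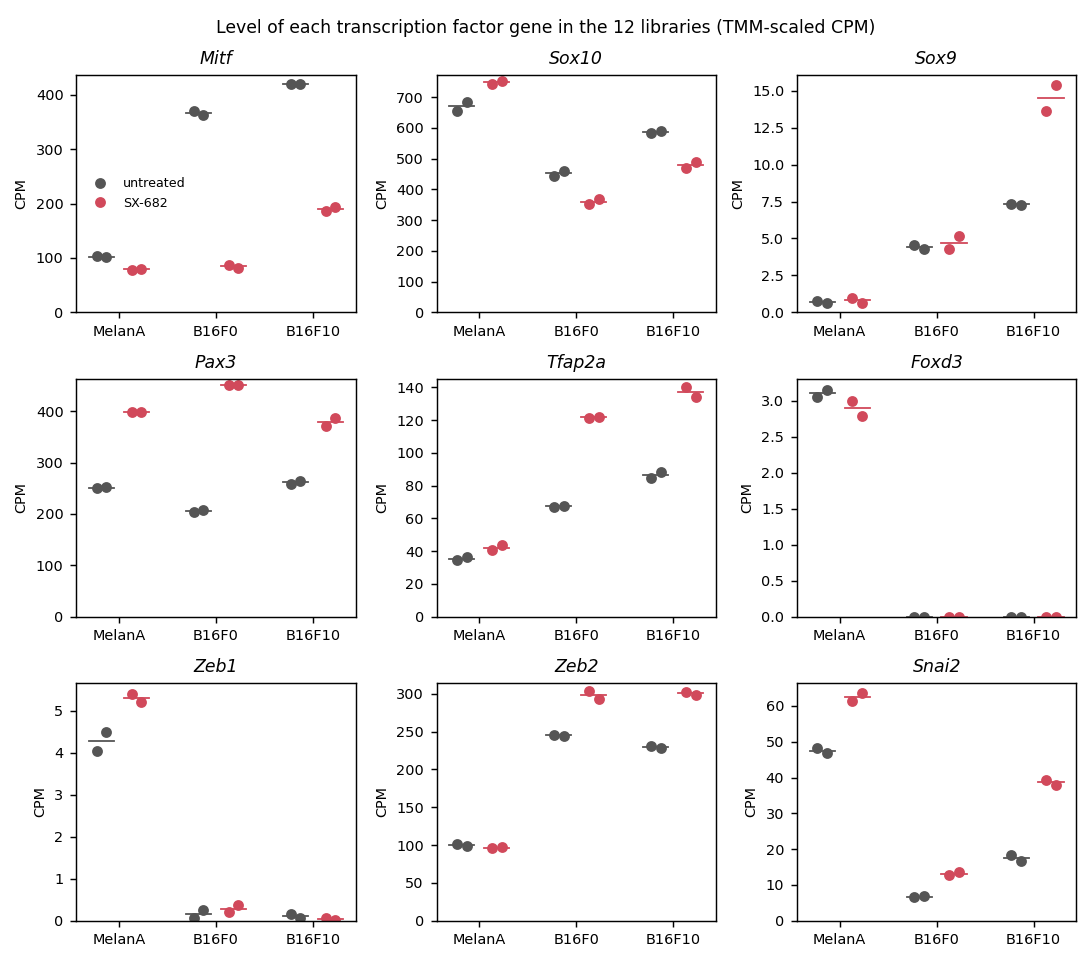
Level of each of the 9 genes in each of the 12 libraries, in TMM-scaled CPM on linear axes from 0. Each point is 1 library and each line the mean of 2 libraries, grey for untreated and red for SX-682. Mitf fell in all 3 lines, from 371 and 362 to 86.8 and 82.4 CPM in B16F0, while Pax3 rose in all 3.

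Mitf was at 103 and 101 CPM in the untreated MelanA libraries, 371 and 362 in B16F0 and 420 and 420 in B16F10. The groups did not overlap. The level was 3.59-fold higher in B16F0 than in MelanA (log2 difference 1.85, SE 0.029, edgeR adjusted p = 4.8e-30) and 4.12-fold higher in B16F10 (2.04, SE 0.029, edgeR adjusted p = 4.7e-31). B16F10 stood only 1.15-fold above B16F0 (log2 difference 0.20, SE 0.027, edgeR adjusted p = 2.5e-07).

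Its activators Sox10 and Pax3 differed less from MelanA. Sox10 was at 655 and 685 CPM in MelanA, 445 and 460 in B16F0 and 582 and 589 in B16F10, highest in MelanA. That was 1.48-fold lower in B16F0 (log2 difference -0.57, SE 0.026, edgeR adjusted p = 3.0e-18) and 1.14-fold lower in B16F10 (-0.19, SE 0.026, edgeR adjusted p = 8.5e-08). Pax3, a paired-box factor of crest progenitors, was at 250 and 252 CPM in MelanA, 203 and 208 in B16F0 and 258 and 265 in B16F10. It was 1.22-fold lower in B16F0 than in MelanA (log2 difference -0.29, SE 0.025, edgeR adjusted p = 1.1e-11). In B16F10 it differed from MelanA by 0.06 on the log2 scale (SE 0.025, edgeR adjusted p = 0.042), a call that was lost with RLE or upper-quartile scaling, with DESeq2, or without either of 2 single libraries (replicate 1 of MelanA, replicate 2 of B16F10). Its sign turned, to -0.13, when libraries were scaled by their totals, which moved the median of all genes by -0.19. The count of 5 genes higher in B16F10 includes it.

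Tfap2a, at 34.7 and 36.1 CPM in MelanA, was at 66.9 and 67.8 in B16F0 and 84.8 and 88.5 in B16F10. The order MelanA, B16F0, B16F10 had no overlap, with log2 differences from MelanA of 0.93 (SE 0.039) and 1.29 (SE 0.038, edgeR adjusted p = 3.1e-19 and 6.3e-23). Sox9 followed the same order at a far lower level, with 0.741 and 0.605 CPM (64 and 55 counts) in MelanA, 4.54 and 4.28 in B16F0 and 7.33 and 7.29 in B16F10. It was 6.55-fold and 10.8-fold higher in the B16 lines (log2 differences 2.71, SE 0.18, and 3.44, SE 0.17, edgeR adjusted p = 2.0e-14 and 2.9e-17). Foxd3 had 264 and 286 counts (3.06 and 3.15 CPM) in untreated MelanA and 0 counts in all 4 untreated B16 libraries. Against the floor of 3 counts per library, it was at least 73.3-fold lower in B16F0 and at least 64.3-fold lower in B16F10. In these bulk cultures, fewer cells with a transcript and less of it per cell cannot be told apart.

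The EMT factors split. Zeb2 was at 102 and 98.9 CPM in MelanA, 245 and 245 in B16F0 and 231 and 228 in B16F10. Zeb1 had the opposite pattern, with 4.05 and 4.50 CPM (350 and 409 counts) in MelanA against 5 and 18 counts in B16F0 and 10 and 4 in B16F10. Both B16 lines were thus higher in Zeb2 (log2 differences 1.29 and 1.19, SE 0.027 each, edgeR adjusted p = 7.5e-27 and 6.0e-26) and lower in Zeb1 (-4.70, SE 0.33, and -5.22, SE 0.36, edgeR adjusted p = 1.2e-13 and 9.3e-14). Snai2, which encodes SLUG, was at 48.2 and 46.8 CPM in MelanA, 6.50 and 6.83 in B16F0 and 18.3 and 16.8 in B16F10. It was 7.13-fold lower in B16F0 and 2.71-fold lower in B16F10 (log2 differences -2.83, SE 0.061, and -1.44, SE 0.054, edgeR adjusted p = 1.7e-26 and 2.5e-20). The fibroblast, keratinocyte, leukocyte and endothelial markers given above were also highest in MelanA, like Zeb1, Snai2 and Foxd3. The part of these markers in the differences was not tested.

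**Figure D2:**
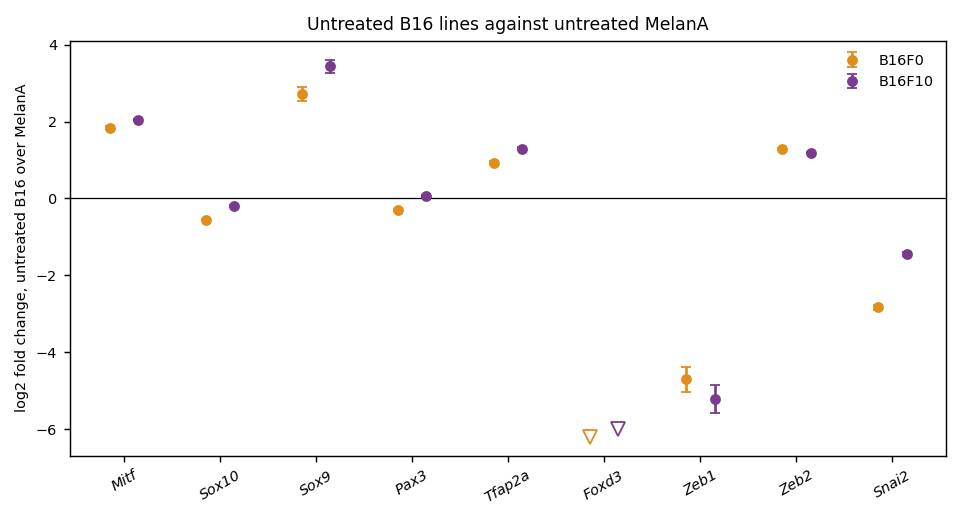
Log2 fold change of each gene in untreated B16F0 (orange) and B16F10 (purple) over untreated MelanA, with bars of 1 SE from edgeR. Open triangles mark Foxd3, drawn at its bounds of 73.3-fold and 64.3-fold lower, because it had 0 counts in the B16 libraries.

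Between the B16 lines, 7 of the 8 genes over the floor passed the test, 6 higher and 1 lower in B16F10, against 62.0% of all genes (30.8% higher, 31.2% lower). The largest was Snai2, 2.64-fold higher in B16F10 (log2 difference 1.40, SE 0.069, edgeR adjusted p = 4.1e-17), followed by Sox9 (0.73, SE 0.14, edgeR adjusted p = 3.0e-05). Sox10, Tfap2a and Pax3 were higher by 0.37, 0.36 and 0.35. Zeb2 was lower by only -0.09 (SE 0.026, edgeR adjusted p = 0.0029), a call lost without replicate 2 of untreated B16F10 (-0.07). Zeb1 did not pass (-0.52, SE 0.59, edgeR adjusted p = 0.47).

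Levels of different genes were compared per kilobase of joined exon. Sox10 stood highest in every group, at 220 ± 7.05 CPM per kb (SD, n = 2) in untreated MelanA, 148 ± 3.57 in B16F0 and 192 ± 1.51 in B16F10. Mitf, at 16.5 ± 0.265 CPM per kb, was 4th in untreated MelanA, after Pax3 (40.6) and Snai2 (23.5). In both untreated B16 lines it was second, at 59.2 ± 0.981 and 67.8 CPM per kb, above Pax3 (33.2 and 42.3). The ratio of Mitf to Sox10 per kb was thus 0.0725 to 0.0776 in untreated MelanA, 0.388 to 0.411 in B16F0 and 0.351 to 0.355 in B16F10. Sox10 exceeded Sox9 by 1197 to 1534 times in MelanA, 133 to 146 times in B16F0 and 108 to 109 times in B16F10. Neighbours in the order did not overlap in any group. Order and ratios depend on the length used. With the median length of the annotated transcripts, Sox10 stayed first, Zeb2 was 3rd in each untreated line and Mitf lay above Snai2 in MelanA (50.6 against 23.5 CPM per kb). Each ratio is then multiplied by a constant, 1.86 for Mitf to Sox10 and 1.65 for Sox10 to Sox9, so that its change between groups stays as given.

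**Figure D3:**
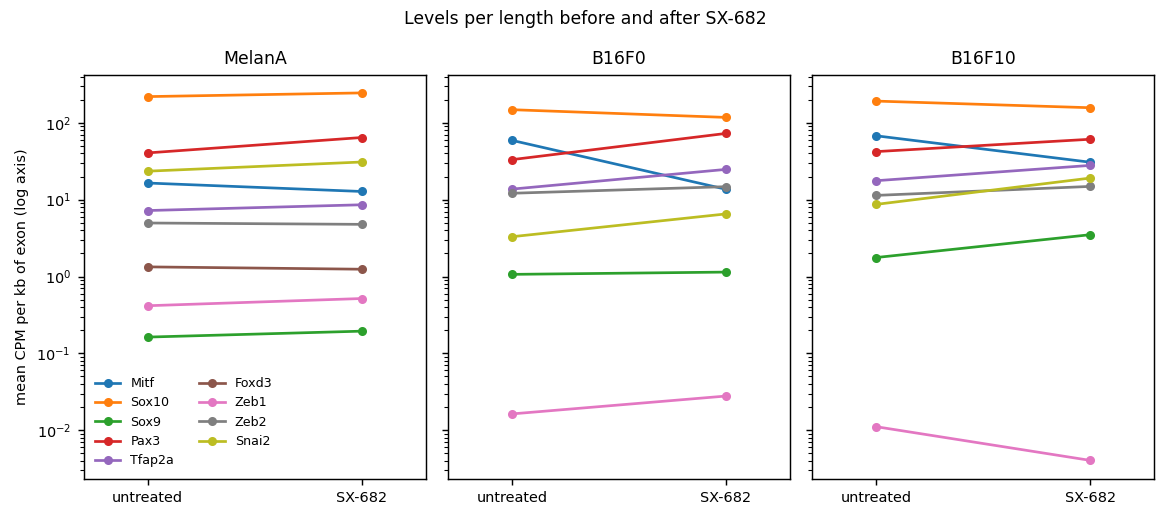
Mean level of 2 libraries in CPM per kb of joined exon (log axis) in each line, untreated and with SX-682. Foxd3 is not drawn in the B16 lines, where it had 0 counts. Mitf drops from rank 2 to rank 5 in B16F0 and to rank 3 in B16F10 (rank 4 with the median transcript length).

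The second comparison asked how the factors changed with SX-682. Mitf fell in all 3 lines, by 4.33-fold in B16F0, 2.21-fold in B16F10 and 1.29-fold in MelanA. Pax3, Tfap2a and Snai2 rose in all 3. Sox10 fell in both B16 lines and rose in MelanA, Zeb2 rose in the B16 lines, and Sox9 rose in B16F10. In MelanA 5 of 9 genes passed (4 higher, 1 lower), where 48.2% of all genes did (23.4% higher, 24.7% lower). In B16F0 it was 6 of 8 over the floor (4 higher, 2 lower) against 50.1% (25.1% higher, 25.0% lower). In B16F10 7 of 8 passed (5 higher, 2 lower) against 50.8% (25.5% higher, 25.3% lower). The 3 genes higher in all 3 lines and the 1 lower stand beside 11.3% and 11.7% of all genes. The median log2 fold change was 0.25 in MelanA, 0.52 in B16F0 and 0.46 in B16F10, against -0.00311, 0.00432 and 0.0123 over all genes over the floor. These factors were chosen with earlier results known, and nothing particular to them is read from these counts.

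With SX-682, Mitf was at 78.0 and 80.5 CPM in MelanA, 86.8 and 82.4 in B16F0 and 186 and 194 in B16F10, below the untreated libraries in each line. The log2 fold changes were -0.36 in MelanA (SE 0.030, edgeR adjusted p = 2.0e-11), -2.11 in B16F0 (SE 0.030, edgeR adjusted p = 2.2e-29) and -1.14 in B16F10 (SE 0.028, edgeR adjusted p = 6.2e-24). Treated B16F0 thus came down to within the range of MelanA with and without the drug, whereas treated B16F10 stayed above it. A larger absolute change was found for 6.01% of all genes tested in B16F0, 14.8% in B16F10 and 43.5% in MelanA. The fall was larger in B16F0 than in B16F10 by 0.97 on the log2 scale (SE 0.041, edgeR adjusted p = 4.9e-17), and larger than in MelanA in both B16 lines (differences -1.75 and -0.78, edgeR adjusted p = 6.6e-23 and 3.0e-15). Per kb, the ratio of Mitf to Zeb2 went from 4.83 to 4.93 in untreated B16F0 down to 0.917 to 0.932 with SX-682. With the median transcript length both are lower, at 1.29 to 1.32 and 0.246 to 0.250, and the fall is by the same factor.

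Sox10 with SX-682 was at 744 and 753 CPM in MelanA, 351 and 368 in B16F0 and 471 and 489 in B16F10. Log2 fold changes were 0.16 in MelanA (SE 0.026, edgeR adjusted p = 4.7e-06), a rise, and -0.33 in B16F0 and -0.29 in B16F10, both falls (SE 0.026 each, edgeR adjusted p = 6.2e-12 and 9.5e-11). The change differed between MelanA and each B16 line (-0.49 and -0.45, edgeR adjusted p = 5.8e-12 and 3.9e-11). Between the B16 lines the difference was 0.05 (SE 0.037, edgeR adjusted p = 0.40).

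Pax3 rose to 399 and 399 CPM in MelanA, 451 and 450 in B16F0 and 370 and 387 in B16F10, so that B16F0, lowest before, was highest after. Its log2 fold changes were 0.67 (SE 0.025), 1.13 (SE 0.025) and 0.53 (SE 0.025), with edgeR adjusted p = 2.1e-19, 6.4e-25 and 2.7e-17. The rise in B16F0 exceeded that in MelanA by 0.47 and that in B16F10 by 0.60 (edgeR adjusted p = 6.2e-12 and 8.1e-14), and the change in B16F10 differed from that in MelanA by -0.13 (edgeR adjusted p = 0.0034). The ratio of Mitf to Pax3 per kb was 1.74 to 1.82 in untreated B16F0 and 0.183 to 0.192 with SX-682. In MelanA it was 0.399 to 0.412 and 0.195 to 0.202. The median transcript length multiplies these by 1.62.

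Tfap2a rose to 40.8 and 43.4 CPM in MelanA, 121 and 122 in B16F0 and 140 and 134 in B16F10. Log2 fold changes were 0.25, 0.85 and 0.66 (SE 0.040, 0.036 and 0.036), with edgeR adjusted p = 4.8e-06, 4.9e-18 and 8.9e-16. The rise was larger in B16F0 than in MelanA by 0.60 and in B16F10 by 0.41 (edgeR adjusted p = 3.0e-10 and 3.4e-07). Foxd3 had 214 and 209 counts in treated MelanA (a mean of 2.89 CPM against 3.10 untreated) and did not pass (log2 fold change -0.10, SE 0.23, edgeR adjusted p = 0.76). It had 0 counts in all 4 treated B16 libraries, so no fold is given there.

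Sox9 rose in B16F10, from 7.33 and 7.29 to 13.6 and 15.4 CPM (log2 fold change 0.99, SE 0.13, edgeR adjusted p = 1.1e-07). Treated B16F0 was at 4.30 and 5.15 and treated MelanA at 0.996 and 0.613 CPM, and both groups overlapped the untreated libraries (0.09, SE 0.14, and 0.25, SE 0.23, edgeR adjusted p = 0.66 and 0.40). The change in B16F10 was larger than that in B16F0 by 0.90 (SE 0.19, edgeR adjusted p = 0.00051) and than that in MelanA by 0.73 (SE 0.26, edgeR adjusted p = 0.031). The last call was lost in 5 of the 8 fits that left out 1 library of these groups, all but those without replicate 2 of untreated MelanA, replicate 1 of treated MelanA or replicate 1 of treated B16F10, and was lowest without replicate 2 of treated MelanA (0.41, edgeR adjusted p = 0.32). Together with the lower Sox10, this brought the ratio of Sox10 to Sox9 per kb in B16F10 to 43.2 to 46.9.

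Snai2 rose to 61.5 and 63.6 CPM in MelanA, 12.7 and 13.7 in B16F0 and 39.3 and 38.0 in B16F10. No treated library overlapped an untreated one of its line. The log2 fold changes were 0.40, 0.98 and 1.14 (SE 0.048, 0.073 and 0.056), with edgeR adjusted p = 3.2e-08, 1.5e-12 and 9.4e-17. Those of the B16 lines exceeded that of MelanA by 0.58 and 0.74 (edgeR adjusted p = 3.0e-06 and 2.1e-09), but their difference from each other, 0.16 (SE 0.092), did not pass (edgeR adjusted p = 0.22). Even after the rise both B16 lines stayed below untreated MelanA.

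Zeb2 rose to 304 and 293 CPM in B16F0 and 303 and 299 in B16F10, levels that overlapped each other. Treated MelanA, at 95.6 and 97.4, lay just below its controls. Log2 fold changes were 0.29 (SE 0.026, edgeR adjusted p = 1.2e-10) and 0.39 (SE 0.026, edgeR adjusted p = 1.3e-13) in the B16 lines and -0.06 in MelanA (SE 0.028, edgeR adjusted p = 0.088). The change differed from that of MelanA by 0.34 and 0.45 (edgeR adjusted p = 1.8e-08 and 1.0e-10). Zeb1 was at 5.40 and 5.22 CPM in treated MelanA, above both controls, and at 13 and 18 counts in B16F0 and 4 and 1 in B16F10, and it passed in no line (0.31, 0.75 and -1.39, SE 0.22, 0.50 and 0.83, edgeR adjusted p = 0.26, 0.23 and 0.17). The MelanA value passed when that line was fitted alone (edgeR adjusted p = 0.028), and the B16F0 value rose to 2.01 without replicate 2 of untreated B16F0 (edgeR adjusted p = 0.015).

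**Figure D4:**
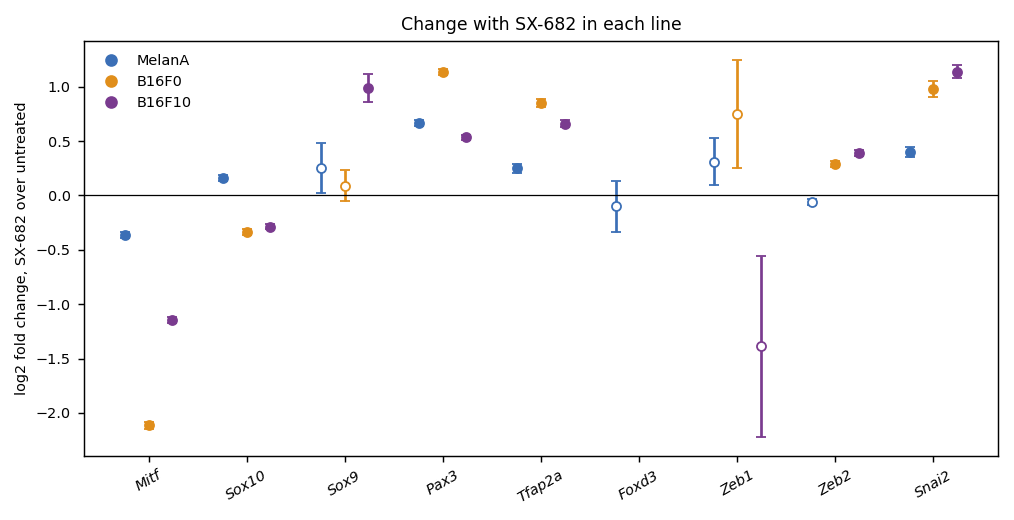
Log2 fold change with SX-682 over untreated for each gene in each line, with bars of 1 SE from edgeR. Filled points passed at adjusted p under 0.05 and open points did not, and Foxd3 is shown for MelanA alone. Mitf is below 0 in all 3 lines, down to -2.11 in B16F0, and Pax3, Tfap2a and Snai2 are above 0 in all 3.

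An F-test over the 3 lines asked whether the change differed among them. It passed for 7 of 8 genes, Foxd3 left out for its B16 zeros, against 47.4% of all genes, and not for Zeb1 (edgeR adjusted p = 0.17). By pairs of lines, 6 of 8 differed between B16F0 and MelanA (34.4% of all genes), 7 of 8 between B16F10 and MelanA (33.8%) and 5 of 8 between the B16 lines (30.3%). Among the last, the change of Zeb2 was 0.10 higher in B16F10 than in B16F0 (SE 0.037, edgeR adjusted p = 0.035), a call lost with RLE scaling, DESeq2 or either other expression filter, and without each single library other than replicate 1 of treated B16F0 (edgeR adjusted p up to 0.17). The difference of Zeb1 between the B16 lines (-2.14, SE 0.97, edgeR adjusted p = 0.10) passed with a replicate block and without 3 single libraries, with the F-test for Zeb1 then also passing in the fit without replicate 2 of untreated B16F0.

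Pigment genes, which MITF and SOX10 are known to activate, were set beside the factors as a list of 13 enzymes, transporters and melanosome proteins. Like the factors, this list was chosen with earlier results of these data known, so nothing particular to it is read from its counts. All 13 fell in B16F0 and in B16F10, with median log2 fold changes of -0.49 and -0.86, where 25.0% and 25.3% of all genes fell. In MelanA 6 fell, 4 rose and 2 of the 12 over the floor did not pass (23.4% of all genes rose and 24.7% fell). Mitf fell further in B16F0 than in B16F10, whereas the median of the list fell further in B16F10. Tyr fell in all 3 lines, by 0.83 in B16F0, 1.92 in B16F10 and 1.55 in MelanA, the last from 77 and 69 to 22 and 19 counts. Dct, the dopachrome tautomerase, fell by 0.27, 0.69 and 0.39 in the same order, and Mlana, a melanosome membrane protein, by 0.46, 1.07 and 0.20. Tyrp1, an enzyme of eumelanin synthesis, fell by 0.14 and 0.86 in the B16 lines and rose by 0.42 in MelanA. Pmel, the fibril protein of the melanosome, fell by 0.14 and 0.44 in the B16 lines and was at -0.02 in MelanA (edgeR adjusted p = 0.79).

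**Figure D5:**
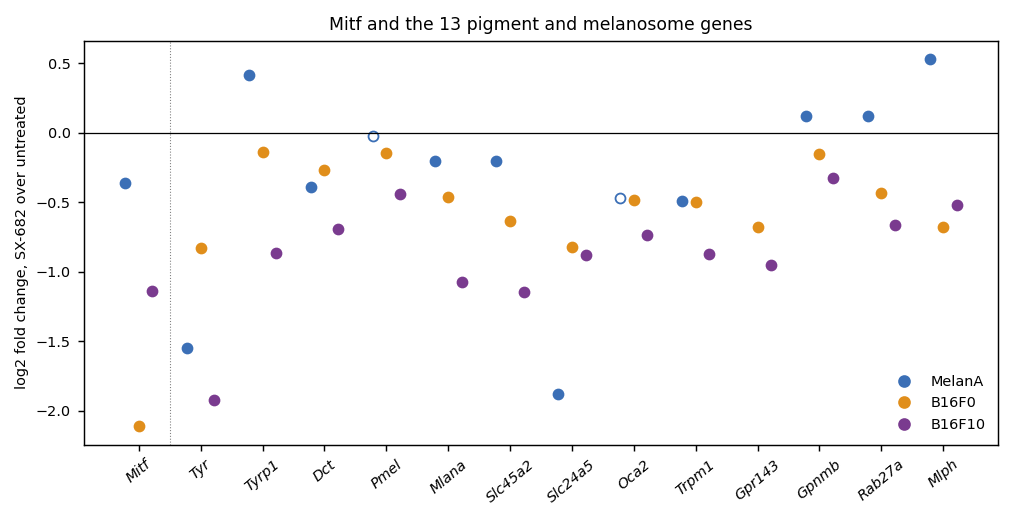
Log2 fold change with SX-682 over untreated of Mitf and of 13 pigment and melanosome genes in MelanA (blue), B16F0 (orange) and B16F10 (purple). Filled points passed edgeR's test at adjusted p under 0.05, and Gpr143 is not drawn in MelanA, where it was at the floor. All 13 are below 0 in both B16 lines, and 4 are above 0 with a filled point in MelanA.

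Of 12 other known MITF targets, 9 were tested. In B16F0 4 rose and 5 fell (25.1% and 25.0% of all genes), in B16F10 3 rose and 5 fell (25.5% and 25.3%), and in MelanA 4 rose and 2 fell (23.4% and 24.7%). These shares of all genes apply to each list below. Dicer1, which processes microRNA precursors, fell in all 3 lines (-0.73 in MelanA, -1.06 in B16F0, -0.73 in B16F10), and Hif1a, the hypoxia factor, rose in all 3 (0.91, 0.30 and 0.27). Named after their values were seen, Cdk2 also fell in all 3 (-0.73, -0.28 and -1.01), the receptor gene Met fell in both B16 lines (-1.11 and -0.95), and Ppargc1a rose in MelanA (0.91) and B16F10 (0.30) but fell in B16F0 (-0.85).

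Among 13 regulators of Mitf transcription, Atf4 rose in all 3 lines. It encodes a factor of the integrated stress response that can bind the cAMP response element shown above before 1 of the 3 Mitf starts. Its level went from 371 and 388 to 635 and 626 CPM in MelanA, from 224 and 230 to 461 and 459 in B16F0, and from 225 and 225 to 612 and 614 in B16F10. The log2 fold changes were 0.73, 1.02 and 1.45 (SE 0.024, 0.024 and 0.025, edgeR adjusted p = 8.1e-21, 3.9e-24 and 6.3e-28). Whether Atf4 has a part in the change of Mitf was not tested. Ctnnb1, which encodes beta-catenin, fell in all 3 (-0.22, -0.36 and -0.51). Its partner Lef1 was at 20.3 and 20.5 CPM in untreated MelanA and at 0 to 15 counts in the B16 libraries, and passed in no line. Kit, the receptor of stem cell factor, was at 4.20 and 4.36 CPM in untreated B16F0, 2.63 and 2.80 with SX-682 (log2 fold change -0.66, edgeR adjusted p = 0.057). It passed with a replicate block, with no expression filter and with only that line fitted (edgeR adjusted p = 0.020, 0.018 and 0.00079). In MelanA it had 11 and 4 counts untreated and 25 and 8 with SX-682, and is 1 of the genes called higher there (1.40, edgeR adjusted p = 0.044). That call was lost with DESeq2, with MelanA fitted alone, without replicate 2 of untreated MelanA and without replicate 1 of treated MelanA (0.33, edgeR adjusted p = 0.77). In B16F10 Kit had 0 to 3 counts. Pou3f2, which encodes BRN2, rose in MelanA (0.48, edgeR adjusted p = 0.030) and fell in B16F10 (-0.66, edgeR adjusted p = 0.017), and both calls were lost when single libraries were left out. Mc1r, the melanocortin receptor gene, named after its values were seen, fell in both B16 lines (-0.12 and -0.84). Over the whole list 3 rose and 4 fell in MelanA, 4 and 2 in B16F0 and 3 and 3 in B16F10. The list had 12, 11 and 9 genes over the floor in that order.

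MITF has 3 relatives in the MiT family, which regulate lysosomal genes. Tfeb rose in all 3 lines (0.34, 0.24 and 0.39) and so did Tfe3 (0.21, 0.50 and 0.12), opposite to Mitf, although the call of Tfe3 in B16F10 (edgeR adjusted p = 0.026) was lost under some alternatives. Tfec fell in MelanA from 12.3 and 12.8 to 8.91 and 9.36 CPM (-0.46, edgeR adjusted p = 0.0083), a call lost without replicate 2 of untreated MelanA or replicate 1 of treated MelanA (edgeR adjusted p = 0.063 and 0.080), and had 16 counts or fewer in each B16 library.

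Genes of the mesenchymal state, a readout of EMT factors, gave no single direction. Of 12 tested, 2 rose and 5 fell in MelanA, 4 rose and 4 fell in B16F0 and 6 rose and 3 fell in B16F10. Some of these calls rest on few reads. In B16F0 they include the rise of Acta2 (0.00667 to 0.0975 CPM) and the falls of Tagln (0.103 to 0) and S100a4 (0.247 to 0.0483). In B16F10 they include the rises of Col3a1 (0.00827 to 0.101 CPM) and Cdh11 (0.0887 to 0.842). Fibronectin (Fn1) rose in all 3 lines (0.17, 0.71 and 0.83) and so did vimentin (Vim, 0.06, 0.24 and 0.45), whereas N-cadherin (Cdh2) fell in all 3 (-0.48, -0.25 and -0.37). E-cadherin (Cdh1), which ZEB and SNAI factors repress, was at 4.25 and 4.99 CPM in untreated MelanA, 1.24 and 1.20 in B16F0 and 0.529 and 0.532 in B16F10, and passed in no line (0.14, -0.10 and 0.04). Axl, a receptor kinase known from melanoma cells low in MITF, rose in all 3 (0.34, 0.46 and 0.33).

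For each factor, the 2 genes of the 10957 with a mean log2 CPM of at least 1 whose log2 CPM had the highest Pearson r with it over the 12 libraries were found. These r are a description over libraries that share 3 lines and 2 treatments. For Mitf they were Tfrc, the transferrin receptor (r = 0.988), and Ap1s2 (0.983). Sox10 was most like Nol12 and Spry2 (0.989 each), Pax3 like Samd8 (0.980) and Cep170 (0.971), and Tfap2a like Tmcc2 (0.992) and Mdm2 (0.989). Sox9 was most like Pcca and Trappc2l (0.993 each), Zeb2 like Opa1 and Phgdh (0.996 each) and Snai2 like Tnfrsf1a (0.994) and Mtss1 (0.991). Foxd3, counted in MelanA alone, was most like Igtp and H2-DMa (0.997 each), and Zeb1 like Sh2b2 and Tent5b (0.984 each).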

How the data were processed

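RNA of cultured MelanA, B16F0 and B16F10 cells was sequenced. The authors deposited whole-number read counts per gene for 12 libraries, without normalization, and no other column of sample values. Per the labels the build is mm10, and the submitters' processing notes name cutadapt, STAR and DESeq2 without versions. The counting program and its strand setting are not given in the sources used here. Gene lengths and coordinates in the table are those of GENCODE M21 for 33821 identifiers. Replicates of a group differed by more than counting noise (chi-square per gene 2.83 to 5.16).

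The 12 libraries in 6 groups were fitted together in edgeR 4.0.16 (R 4.3.3) with group means, TMM scaling, its expression filter (18338 genes), the quasi-likelihood F-test and Benjamini-Hochberg adjustment at 0.05 over all genes tested. The fit had 6 residual and 21.9 prior degrees of freedom. SX-682 was compared with untreated in each line, the changes were compared between lines, and untreated lines with each other. CPM used TMM-scaled totals. A floor of 3 counts per library (0.0330 to 0.0623 CPM) covers counting error only. With 2 against 2 libraries, an exact permutation test cannot go below p = 0.333, so none was used. The fits were tested on simulated data.

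Alternatives were DESeq2 1.42.0, RLE, upper-quartile and library-total scaling, testing without a filter or on genes with 10 or more counts in each library, a prior count of 2, only the groups compared, a replicate block, each library left out and, for levels per kb, median transcript length. The members and gene lists were chosen with earlier results of these data known. Genes named beside the members are 5 melanocyte markers, 4 regulators, 5 relatives and 5 EMT readouts, the largest rise and fall of each list among genes called alike in all 3 lines, and the 2 genes most like each member. Promoter sequences are RefSeq's.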

Additional observations from a re-analysis of the deposited data

Results flagged for a closer look

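The change with SX-682 differed among the 3 lines, by the F-test of edgeR's quasi-likelihood fit, for 7 factors. The spread from the lowest to the highest line, in log2 fold change, was 1.75 for Mitf (edgeR adjusted p = 1.3e-22), with the largest fall in B16F0, and 0.90 for Sox9 (edgeR adjusted p = 0.00069), which rose in B16F10. It was 0.74 for Snai2 (edgeR adjusted p = 2.3e-09), 0.60 for Pax3 (edgeR adjusted p = 3.2e-14) and 0.60 for Tfap2a (edgeR adjusted p = 7.0e-10). For Sox10 it was 0.49 (edgeR adjusted p = 1.8e-12), with a rise in MelanA and falls in both B16 lines, and for Zeb2 0.45 (edgeR adjusted p = 1.4e-10). Markers of melanocytes, fibroblasts, keratinocytes, leukocytes and endothelium also differ between the lines, and their part was not tested.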

How the results depend on the processing

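For the factors, log2 fold changes and differences of change were recomputed under each alternative. Of these, 1004 kept their side of the threshold and, if called, their direction. A call was lost in 22 and gained in 6, and 2 called values changed sign. Values that did not pass could turn sign uncounted, such as the SX-682 change of Sox9 in B16F0 (-0.038 to 0.22 without single libraries). Both counted sign changes were of Pax3 in untreated B16F10 against MelanA. It was at -0.13 with library totals and -0.00874 with at least 10 counts in every library. That filter also removed Foxd3 and Zeb1, leaving 3 factors lower in untreated B16F0 than in MelanA and 2 lower in B16F10. Leaving out single libraries gave 0 to 1 factors lower in untreated B16F10 than in B16F0, as Zeb2 (-0.07, edgeR adjusted p = 0.076) lost its call without replicate 2 of untreated B16F10. They also gave 4 to 5 factors higher in B16F0 with SX-682, 4 to 5 higher in untreated B16F10 than in MelanA, 7 to 8 in the F-test, 3 to 4 with a higher change in B16F10 than in MelanA, and 2 to 3 with a higher and 2 to 3 with a lower change in B16F10 than in B16F0. The other counts of factors stayed as given when single libraries were left out. The replicate numbers did not pair the libraries (correlation of deviations 0.0031, -0.0091 and -0.013), and with a replicate block the fall of Mitf in B16F0 was -2.11, all factors kept their calls within lines, and 3 in place of 2 had a lower change in B16F10 than in B16F0. With median transcript length, 18 levels per kb moved beyond the replicate SD and 7 did not. Those 7 were of Sox9, Snai2 and Foxd3, which have 1 annotated transcript each, so they could not move. The low counts of Zeb1 and Sox9 limit their values.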

Other observations

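Other factors of the neural crest and of EMT were counted as lists, beside 23.4% of all genes higher and 24.7% lower in MelanA, 25.1% and 25.0% in B16F0 and 25.5% and 25.3% in B16F10. Of 15 neural crest factors 12 were tested, with 12 over the floor in MelanA, 9 in B16F0 and 8 in B16F10. Of these, 3 rose and 3 fell in MelanA, 6 rose and 2 fell in B16F0 and 4 rose and 1 fell in B16F10. Some calls rest on few reads, such as the rises of Sox8 in MelanA (0.00579 to 0.178 CPM) and B16F0 (0 to 0.0567). Ets1, an ETS factor of crest cells, rose in all 3 lines (0.21, 0.37 and 0.29 on the log2 scale). Ngfr, the neurotrophin receptor gene of crest cells, was named after its values were seen. It rose in MelanA (2.15) and B16F10 (0.26) and fell in B16F0 (-0.47). The MelanA rise lay close to the floor, from a mean of 0.0510 to 0.232 CPM, against 108 to 130 CPM in B16F10. Of 15 other EMT and epithelial factors 10 were tested, with 8 over the floor in each line. Of these, 1 rose and 1 fell in B16F0, and in B16F10 1 rose and Klf8 fell, on few reads (0.0496 to 0 CPM). In MelanA 1 rose and 2 fell. Among them, and again named after the values were seen, Tcf4, an E-protein gene, fell in MelanA (-0.16) and rose in the B16 lines (0.13 and 0.33), while Tcf3, another E-protein gene, fell in MelanA (-0.27) and B16F0 (-0.11). Snai1, the relative of Snai2, had 95 to 127 counts in MelanA and 0 to 7 in B16 libraries, and Twist2, the relative of Twist1, had 31 to 63 counts in MelanA and 0 in all 8 B16 libraries.

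Of 13 epithelial genes 10 were tested, with 10 over the floor in MelanA, 6 in B16F0 and 3 in B16F10. Those that passed were named after the values were seen. Epcam and Cldn4 were higher in MelanA, and Tjp1 was lower in MelanA (-0.21) and B16F0 (-0.18). Epcam went from 0 to a mean of 0.0484 CPM in MelanA, next to the floor, and Cldn4 from 0.181 to 0.614. Of 9 genes known from MITF-low melanoma cells 7 were tested, with 7 over the floor in MelanA, 6 in B16F0 and 5 in B16F10. Of these, 3 were higher and 1 lower in B16F0, 2 higher and 2 lower in B16F10 and 1 each way in MelanA. The rise of Egfr in B16F0 rests on few reads (0.00667 to 0.0911 CPM). Jun, an AP-1 subunit gene named after its values were seen, rose in both B16 lines (0.86 and 0.35) and fell in MelanA (-0.72).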
